A study of Mus musculus with 9 samples.

Results

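The outer segment is the light-catching end of a rod or cone, and the 10 genes described here encode proteins that build it, hold it in order or surround it: Prph2, Rom1, Prom1, Cdhr1, Rp1, Rp1l1, Fscn2, Tulp1, Impg1 and Impg2. They were taken by name as a list of known structural genes, and every array probe annotated with one of these names was read. That gave 19 of the 56605 gene probes on the array, and all 10 genes were among the 23594 genes with a probe bright enough to test. The samples were retinal organoids, which are balls of retina-like tissue grown in floating culture from mouse ES/iPS cells by quick reaggregation (SFEBq). There were 3 lines, wildtype (WT, also called NCT in the labels), B4KO, which carries a knock-out of Bhlhb4 (the gene now named Bhlhe23), and Isl1KO, an Islet-1 knockout. Both knockouts were meant to leave fewer bipolar cells, which take up the signal of the photoreceptors, and no other allele or agent is named in the labels. Each line was collected at differentiation day (DD) 10, 16 and 23 as a single sample of 5 pooled organoids, so the study has 9 samples and no replicate of a line at a day. The labels do not say whether a line is 1 clone or at which position its gene was cut.

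A photoreceptor outer segment is a modified cilium that holds a stack of membrane discs. Peripherin-2 and its partner ROM1 form the curved rims of the discs, prominin-1 and the cadherin CDHR1 sit at the base where new discs form, and RP1 and its relative RP1L1 lie along the microtubules of the axoneme. Fascin-2 bundles actin, TULP1 takes part in carrying proteins towards the outer segment, and IMPG1 and IMPG2 are large glycoproteins of the matrix around it. Mutations in most of these genes are known causes of retinal degeneration in humans or mice.

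Levels are given as log2 of the processed signal over the 75th percentile of the same array, so that 0 is the brightness of the probe at that percentile and a step of 1 is a doubling. A probe's brightness also depends on its sequence, so levels of different genes or probes were not ranked against each other. A probe that the scanner software did not mark as well above background is called dim here, and a fold against a dim group is given as a lower bound. Between 57.3% and 67.8% of gene probes were well above background on each array and none was saturated. The 75th percentile lay between 897 and 1138 units of processed signal. Photoreceptor markers depended on the day. Crx, a transcription factor of photoreceptor precursors, was above background on all 9 arrays, whereas recoverin (Rcvrn), a calcium sensor of photoreceptors, was dim on all 6 arrays of DD10 and DD16 and above background on all 3 of DD23. The summed signal of 15 photoreceptor markers, in multiples of the 75th percentile, was 2.10 to 3.71 at DD10, 57.4 to 67.5 at DD16 and 334 to 428 at DD23. The day of collection and the position on the slide were the same for all lines, so they cannot be told apart, and B4KO lay alone on its slide while WT and Isl1KO shared the other. In WT, Isl1 measured higher than in Isl1KO by 0.65, 1.88 and 1.58 at DD10, DD16 and DD23, and the Bhlhe23 probe was dim in B4KO at DD16 and DD23 but also in Isl1KO at DD23. Whether these probes lie in the deleted parts is not given, so they do not check the knockouts.

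The promoter windows of some of the genes are shown first, because the genes fell into different time courses and because CRX, which binds near TAATC, is a known activator of photoreceptor genes. RefSeq entries of build GRCm38.p6 gave the 250 bases before the annotated start for 8 of the 10 genes, with 2 starts for Prom1. The letters TAATCC, the fuller CRX core, and TGCTGA, a core of the site bound by NRL, were searched on both strands and were in none of these windows, against 6.3% and 16.1% of 32851 windows of the same length. The shorter TAATC was searched after that result was seen. It was in 19.8% of all windows and in the windows of 4 of the 8 genes. The first share counts windows and the second counts genes, with Prom1 counted through 1 of its 2 windows. In the sequences, capitals mark TAATC, or its reverse complement GATTA where the match is on the other strand. The Prph2 window lies at chr17:46910228-46910477 on the plus strand and has matches 61 and 30 bases before the start. The Impg1 window lies at chr9:80465439-80465688 on the minus strand with matches at 68 and 42 bases. The Impg2 window lies at chr16:56204063-56204312 on the plus strand with 1 match at 57 bases. The second Prom1 start, at chr5:44094769-44095018 on the minus strand, has 1 match at 28 bases. The first Prom1 start, at chr5:44101737-44101986 on the minus strand, and Rom1, at chr19:8929357-8929606 on the minus strand, have no match and are shown for comparison. The windows of Cdhr1, Fscn2 and Tulp1 have none either and are not printed. A match is a run of letters and not a measured binding site.
Prph2: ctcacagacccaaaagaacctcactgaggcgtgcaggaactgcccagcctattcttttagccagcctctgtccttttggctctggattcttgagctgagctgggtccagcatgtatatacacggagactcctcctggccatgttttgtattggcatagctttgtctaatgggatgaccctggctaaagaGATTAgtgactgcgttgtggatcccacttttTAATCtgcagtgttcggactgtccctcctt
Impg1: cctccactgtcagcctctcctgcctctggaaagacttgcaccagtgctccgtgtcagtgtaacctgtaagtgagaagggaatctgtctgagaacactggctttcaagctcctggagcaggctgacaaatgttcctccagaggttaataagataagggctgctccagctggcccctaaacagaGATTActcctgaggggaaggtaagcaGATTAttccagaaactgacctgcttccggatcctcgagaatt
Impg2: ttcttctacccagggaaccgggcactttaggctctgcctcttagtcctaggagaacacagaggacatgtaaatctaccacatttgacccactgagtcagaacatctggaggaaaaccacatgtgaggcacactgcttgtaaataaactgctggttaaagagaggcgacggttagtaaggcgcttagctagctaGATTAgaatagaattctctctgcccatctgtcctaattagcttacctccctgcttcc
Prom1, second start: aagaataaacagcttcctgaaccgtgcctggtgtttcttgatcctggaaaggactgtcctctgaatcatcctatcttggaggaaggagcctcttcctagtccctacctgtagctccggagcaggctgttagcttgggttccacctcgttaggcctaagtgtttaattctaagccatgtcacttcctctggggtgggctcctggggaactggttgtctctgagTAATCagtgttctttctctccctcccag
Prom1, first start: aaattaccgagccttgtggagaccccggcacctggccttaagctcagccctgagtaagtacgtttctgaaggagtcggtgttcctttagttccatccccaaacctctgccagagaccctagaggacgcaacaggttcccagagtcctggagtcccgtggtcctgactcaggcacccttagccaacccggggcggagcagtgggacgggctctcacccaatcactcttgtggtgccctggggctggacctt
Rom1: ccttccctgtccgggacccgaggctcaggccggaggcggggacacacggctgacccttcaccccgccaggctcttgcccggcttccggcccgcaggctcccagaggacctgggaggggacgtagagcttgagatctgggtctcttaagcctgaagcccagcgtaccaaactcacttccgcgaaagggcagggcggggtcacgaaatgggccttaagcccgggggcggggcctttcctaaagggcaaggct
Of the 4 genes with TAATC, Prph2 and Impg2 rose strongly between DD10 and DD16 in the data below, Impg1 rose by 0.44 and Prom1 fell by 0.55 on the log2 scale. Of the 4 genes without it, Cdhr1 and Tulp1 rose strongly, Fscn2 rose by 0.68 and Rom1 differed by 0.37, which did not pass the test.

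From DD10 to DD16, 8 of the 10 genes rose, Prom1 fell and Rom1 did not pass the test, and from DD16 to DD23, 9 of 10 rose. The rises of Prph2, Rom1, Cdhr1, Rp1l1, Rp1 and Impg2 were more than 10-fold in 1 or both of the steps. Tulp1 reached 10.5-fold in the fitted earlier step, which includes B4KO at DD10, where it was dim. In that step Tulp1 rose 8.5-fold in WT, 6.2-fold in Isl1KO and at least 20.55-fold in B4KO. The rises of Fscn2 and Impg1 stayed under 2-fold on the brightest probe. Fscn2 and Impg1 lost the call of the earlier step with arrays scaled to spike-in RNAs, at 0.17 and -0.07. The order in which the genes came up differed. On the log2 scale Cdhr1 and Rp1l1 made most of their rise before DD16, and Rom1 made almost all of its rise after it. Cdhr1 and Rp1l1 still rose 3.72-fold and 5.86-fold after DD16, so more of their signal was added after DD16 than before it. The test was limma's moderated test on a model of line plus day over all 9 arrays, with Benjamini-Hochberg adjustment over 23594 genes and a threshold of 0.05, so that the 3 lines stand in for replicates of a day. In that fit 40.7% of all genes were called from DD10 to DD16, 21.9% higher and 18.8% lower. From DD16 to DD23 41.2% were called, 19.3% higher and 21.9% lower. The median change of the 10 genes was 3.86 in the earlier step and 2.74 in the later one on the log2 scale, against 0.03 and 0.01 over all genes. With genes dim at DD10 set at their bound, the median of the earlier step was 2.84. These are bulk samples, in which fewer photoreceptors and less RNA in each photoreceptor cannot be told apart. The summed photoreceptor markers given above moved with these genes, and their part in the changes was not tested.

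**Figure D1:**
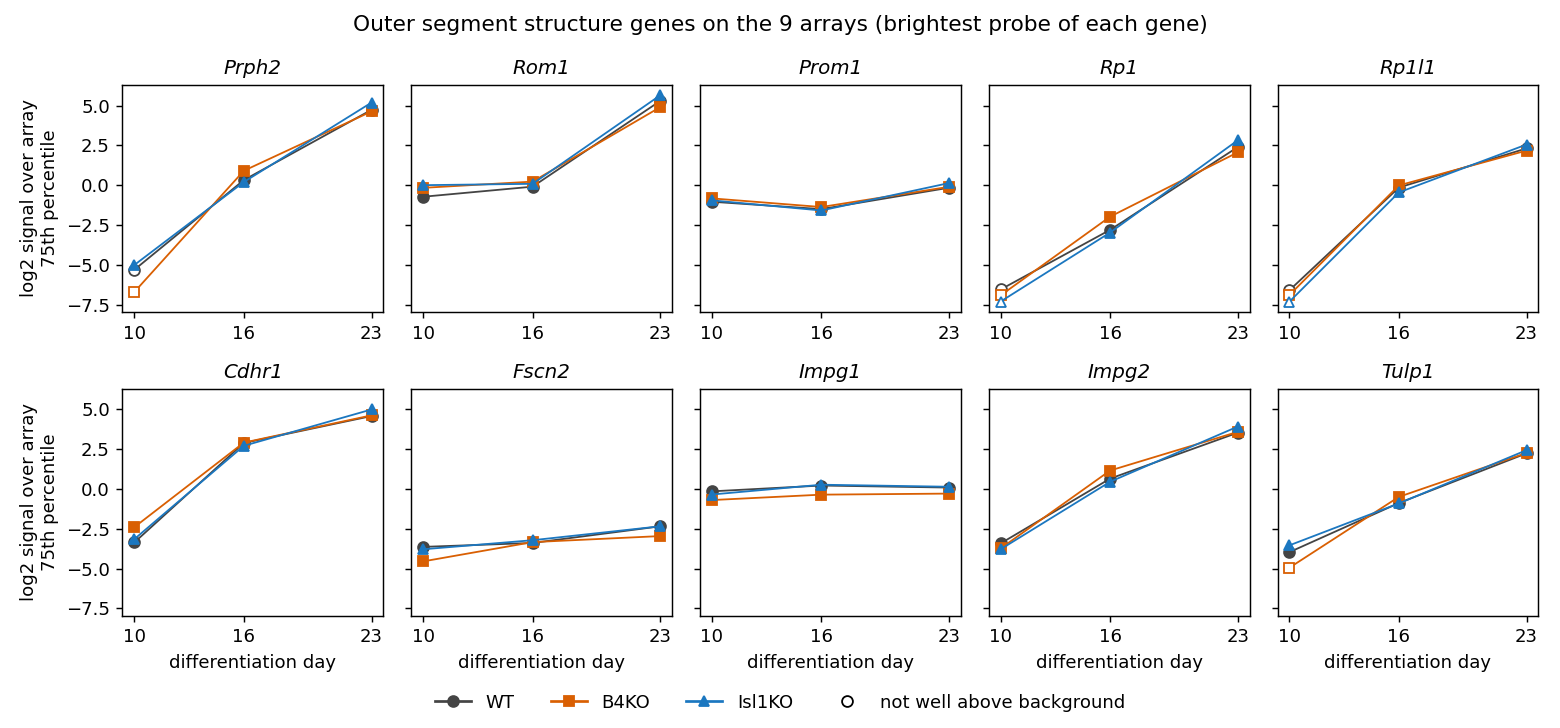
Levels of the 10 genes (log2 of signal over the 75th percentile of the array, brightest probe of each gene) against differentiation day, with a line for WT, B4KO and Isl1KO and open symbols for probes not well above background. Rom1 stays near 0 until DD16 and reaches 4.90 to 5.65 at DD23, whereas Cdhr1 is already between 2.71 and 2.91 at DD16.

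The disc rim genes came up at different times. Prph2 encodes the tetraspanin that bends the disc rim, and its probe at chr17:47060827-47060886 (mm9, plus strand) lies at base 1583 of its RefSeq transcript. At DD10 Prph2 stood at -5.31 in WT, -6.71 in B4KO and -5.01 in Isl1KO, and it was above background in Isl1KO alone. It reached 0.32, 0.90 and 0.20 in the same order of lines at DD16, and 4.73, 4.63 and 5.19 at DD23. Every array of a later day was above every array of an earlier day. In Isl1KO, the line measured on both days, Prph2 was 37.0-fold higher at DD16 than at DD10. The bounds were at least 28.6-fold in WT and at least 54.1-fold in B4KO. The fitted difference was 6.15 (SE 0.44, limma adjusted p = 0.000568) for the earlier step and 4.38 (SE 0.44, adjusted p = 0.00155), or 20.8-fold, for the later step.

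Rom1 encodes the tetraspanin that pairs with peripherin-2 in the rim, and it followed another course. Its probe lies at chr19:9001888-9001947 (mm9, minus strand). Rom1 measured -0.73 in WT, -0.17 in B4KO and 0.00 in Isl1KO at DD10 and -0.09, 0.22 and 0.09 at DD16, always above background. At DD23 it measured 5.29, 4.90 and 5.65. The arrays of DD10 and DD16 lay close together and overlapped over the lines, while the arrays of DD23 stood far above both. The earlier difference of 0.37 (SE 0.21, limma adjusted p = 0.196, 95% interval -0.13 to 0.87) missed the threshold, and with arrays scaled to the spike-in RNAs it was -0.14. The later step was a rise of 5.21 (SE 0.21, adjusted p = 0.000479), or 36.9-fold, and in the separate lines Rom1 was 41.8-fold, 25.6-fold and 47.2-fold higher at DD23 than at DD16 in WT, B4KO and Isl1KO.

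The genes of the disc-forming base also differed from each other. Prom1 encodes prominin-1, a membrane protein of the new discs that is also made by progenitor cells. The brightest of its 3 probes lies at chr5:44397410-44397469 (mm9, minus strand). Prom1 measured -1.04 in WT, -0.83 in B4KO and -0.95 in Isl1KO at DD10, -1.50, -1.37 and -1.59 at DD16, and -0.16, -0.10 and 0.13 at DD23. Within this narrow range the 3 days did not overlap, with DD16 lowest and DD23 highest. Prom1 fell by 0.55 (SE 0.11, limma adjusted p = 0.0105) in the earlier step and rose by 1.44 (SE 0.11, adjusted p = 0.000808), or 2.72-fold, in the later one. The other probes of Prom1 moved the same way, by -0.48 and -0.67 in the earlier step and by 1.54 and 0.90 in the later step, and all 4 changes passed the threshold in a fit of all 36326 probes, in which 38.9% and 38.6% of probes were called in the steps. The earlier fall missed the threshold (adjusted p = 0.0566) on the slide of WT and Isl1KO alone, where the value was -0.55; over all its alternatives the adjusted p lay between 0.000454 and 0.0566. Levels of other cells moved over the same days. The summed signal of 12 cell cycle genes was 137 to 174 at DD10, 94.5 to 107 at DD16 and 23.9 to 48.4 at DD23, and that of 12 progenitor markers was 113 to 196, 288 to 320 and 171 to 217. Their part in the course of Prom1 was not tested.

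Cdhr1 encodes the photoreceptor cadherin found where discs are made, and it was among the early genes. Its probe lies at chr14:37891387-37891446 (mm9, minus strand) and was above background on all 9 arrays. Cdhr1 measured -3.35 in WT, -2.39 in B4KO and -3.15 in Isl1KO at DD10, 2.89, 2.91 and 2.71 at DD16, and 4.58, 4.62 and 4.99 at DD23. The 3 lines stayed within 1 log2 unit of each other on every day, and the days did not overlap. The earlier rise was 5.80 (SE 0.23, limma adjusted p = 0.000169), or 55.8-fold, and the later one 1.90 (SE 0.23, adjusted p = 0.00258), or 3.72-fold.

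The axoneme pair also split. Rp1 and Rp1l1 encode related microtubule proteins of the outer segment axoneme, and both probes were dim in all 3 lines at DD10. Rp1, read at chr1:4334346-4334405 (mm9, minus strand), measured -6.55 in WT, -6.92 in B4KO and -7.30 in Isl1KO at DD10, -2.80, -1.98 and -2.97 at DD16, and 2.39, 2.06 and 2.82 at DD23. It was at least 4.87-fold higher at DD16 than at DD10 (fitted difference 4.34, SE 0.35, limma adjusted p = 0.000823) and 32.2-fold higher at DD23 than at DD16 (5.01, SE 0.35, adjusted p = 0.000764). B4KO was the highest line at DD16 and the lowest at DD23.

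Rp1l1, read at chr14:64652129-64652188 (mm9, plus strand), measured -6.60 in WT, -6.90 in B4KO and -7.31 in Isl1KO at DD10, -0.15, -0.01 and -0.45 at DD16, and 2.31, 2.17 and 2.55 at DD23. It was at least 25.3-fold higher at DD16 than at DD10 (fitted difference 6.73, SE 0.20, limma adjusted p = 0.000129). The later rise was 2.55 (SE 0.20, adjusted p = 0.000916), or 5.86-fold. For both genes all 3 arrays of DD23 were above all 3 of DD16. The second Rp1 probe, designed to another RefSeq transcript of the gene and placed at chr1:4280987-4281046, was above background only at DD23 in WT (-4.04) and Isl1KO (-3.49).

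The actin and transport genes rose in both steps, by very different amounts. Fscn2, the actin bundler, was read at chr11:120229419-120229478 (mm9, plus strand) and was low but above background on all 9 arrays. It measured -3.63 in WT, -4.54 in B4KO and -3.78 in Isl1KO at DD10, -3.39, -3.33 and -3.22 at DD16, and -2.34, -2.96 and -2.34 at DD23. The 3 days did not overlap, and B4KO was the lowest line at DD10 and DD23. Fscn2 rose by 0.68 (SE 0.18, limma adjusted p = 0.0285) and then by 0.77 (SE 0.18, adjusted p = 0.0182), or 1.60-fold and 1.70-fold. Both calls rested on single arrays. The earlier one was lost without B4KO at DD10 (0.50), Isl1KO at DD10 (0.70), DD16 (0.73) or DD23 (0.68), and the later one without WT at DD16 (0.59) or DD23 (0.73) or Isl1KO at DD16 (0.71) or DD23 (0.74). On the slide of WT and Isl1KO alone the earlier difference was 0.41 and with spike-in scaling it was 0.17, neither of them past the threshold, and with no filter on dim probes its adjusted p was 0.0637.

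Tulp1, the transport protein, was read by 4 probes whose changes differed in size. The brightest, at chr17:28490679-28490738 (mm9, minus strand), measured -3.96 in WT, -4.94 in B4KO and -3.54 in Isl1KO at DD10, where B4KO was dim. It measured -0.88, -0.49 and -0.90 at DD16 and 2.24, 2.26 and 2.44 at DD23, so the lines nearly coincided on these days and no days overlapped. The rises were 3.39 (SE 0.33, limma adjusted p = 0.00136), or 10.5-fold, and 3.07 (SE 0.33, adjusted p = 0.00183), or 8.42-fold. A probe at chr17:28498857-28498916 rose by similar amounts, 3.52 and 3.16, and was dim in all lines at DD10, which gives a bound of at least 6.64-fold for the earlier step. The probe at chr17:28489503-28489562 gave 1.27 (adjusted p = 0.04999) and 1.52 (adjusted p = 0.0290) in the fit of all probes, but it was dim at DD10 in B4KO and Isl1KO. In WT, where it was above background on every day, its earlier step was 0.17 and its later step 1.41. In the earlier step it was at least 1.41-fold higher in B4KO and at least 2.59-fold higher in Isl1KO. The probe at chr17:28492762-28492821, designed to a cDNA sequence of the gene, changed by 0.37 and 0.36 with adjusted p of 0.243 and 0.266, and stood above background throughout.

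The matrix genes gave the sharpest disagreement between probes. Impg2 encodes a membrane-anchored proteoglycan of the matrix around the outer segments. Its brightest probe, at chr16:56271018-56271077 (mm9, plus strand), measured -3.41 in WT, -3.73 in B4KO and -3.78 in Isl1KO at DD10, 0.65, 1.16 and 0.46 at DD16, and 3.54, 3.59 and 3.92 at DD23. The lines lay close together and the days far apart. Impg2 rose by 4.40 (SE 0.22, limma adjusted p = 0.000249), or 21.1-fold, and then by 2.93 (SE 0.22, adjusted p = 0.000849), or 7.60-fold. Its other probe, at chr16:56213588-56213647, gave 0.47 and 0.89, past the threshold in both steps, but these fits include B4KO arrays of DD10 and DD16 on which it was dim. In the lines where it was above background on every day, the steps were 0.62 and 0.61 in WT and 0.31 and 1.08 in Isl1KO.

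Impg1 encodes a secreted glycoprotein of the same matrix. The brightest of its 3 probes, at chr9:80161162-80161221 (mm9, minus strand, base 3502 of the transcript), measured -0.15 in WT, -0.69 in B4KO and -0.35 in Isl1KO at DD10, 0.22, -0.35 and 0.27 at DD16, and 0.09, -0.29 and 0.14 at DD23. B4KO was the lowest line on every day, and the days overlapped. The fit called a rise of 0.44 (SE 0.09, limma adjusted p = 0.0116) in the earlier step and gave a difference of -0.06 (SE 0.09, adjusted p = 0.602) in the later one. The earlier call was lost without Isl1KO at DD16, where the difference was 0.38. It was also lost on the slide of WT and Isl1KO alone (0.49) and with the probes of the gene averaged (0.33, adjusted p = 0.304), and the difference was -0.07 with spike-in scaling.

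A second Impg1 probe of the same transcript, at base 967, gave another picture. It maps to chr9:80231342-80234745, a span of 3404 bases of genome. It was dim in all lines at DD10 and DD16 and above background in all lines at DD23, at -4.16 in WT, -4.31 in B4KO and -2.96 in Isl1KO. At DD23 it was at least 1.79-fold higher than at DD16, and the fitted difference was 2.99. The probe passed the filter only through its arrays of DD23, so its adjusted p is no independent support and is not given. The third Impg1 probe, at chr9:80160927-80160986, was above background only in Isl1KO at DD23 (-4.06). Impg1 therefore has no single course in these data, and its values in the comparisons below are those of the probe at base 3502.

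**Figure D2:**
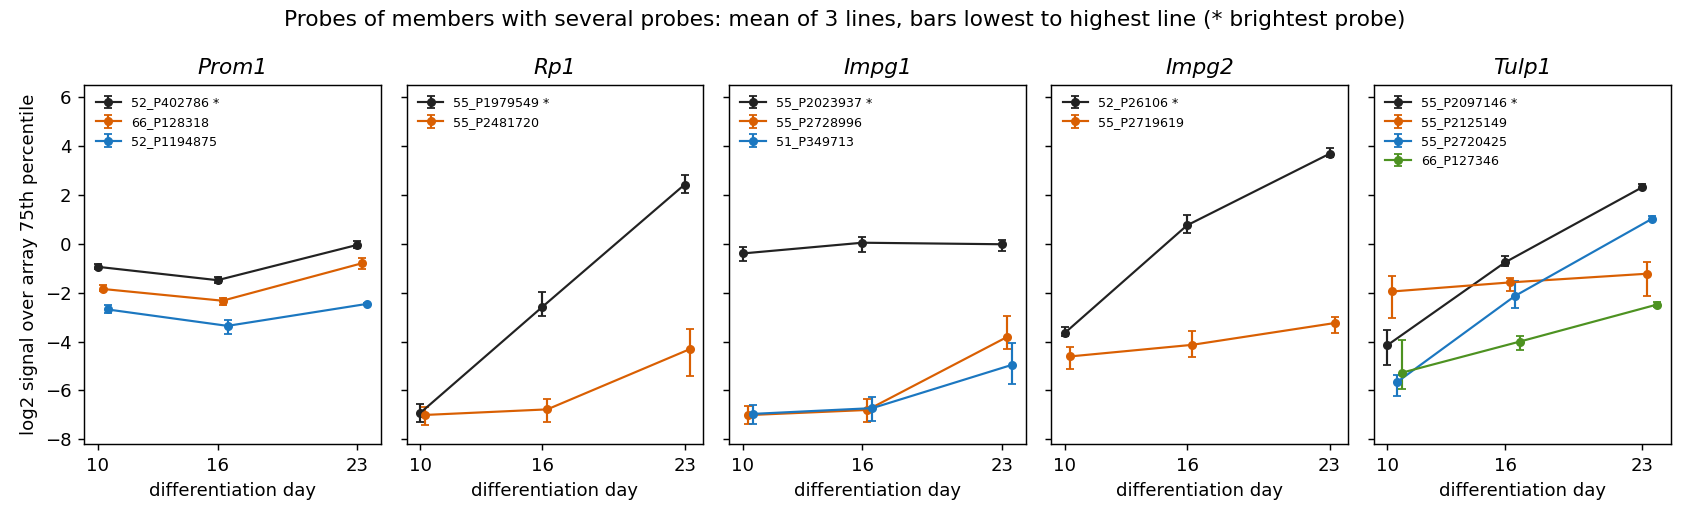
Levels of every probe (log2 of signal over the 75th percentile) of the 5 genes with several probes against differentiation day, as the mean of the 3 lines with bars from the lowest to the highest line, and an asterisk at the brightest probe. The Prom1 probes run in parallel, while the brightest Impg1 probe stays between -0.69 and 0.27 and the Impg1 probe at base 967 comes up only at DD23.

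Whether a gene changed more on the log2 scale in the later than in the earlier step was tested as the difference of both steps. Both steps came from the same fit, and 20.1% of all genes were called for the difference, 8.63% higher and 11.5% lower. Rom1 and Prom1 were called higher, by 4.84 (SE 0.36, limma adjusted p = 0.00302) and 1.99 (SE 0.18, adjusted p = 0.00517). Rp1l1, Cdhr1 and Impg2 were called lower, with later minus earlier of -4.18 (SE 0.35, adjusted p = 0.00400), -3.91 (SE 0.41, adjusted p = 0.00664) and -1.47 (SE 0.38, adjusted p = 0.0447). For Rp1l1 the DD10 signal is dim in every line, and with DD10 set at the detection limit the difference is at most -2.11. The call for Impg2 was lost without any of 7 arrays, namely WT at DD16 (-1.62) or DD23 (-1.37), B4KO at DD10 (-1.35), DD16 (-0.98) or DD23 (-1.35) and Isl1KO at DD10 (-1.42) or DD16 (-1.82). It was also lost with quantile normalization (-1.23, adjusted p = 0.0545), with normexp background correction (-0.67), with the dim-probe filter loosened to 1 array or removed (-1.47, adjusted p = 0.0681 and 0.101), with probes averaged (-0.53), on the slide of WT and Isl1KO alone (-0.98) and with spike-in scaling (-0.89). The second Impg2 probe gave 0.42 (adjusted p = 0.171), the other sign. The other 5 genes did not pass. For Prph2 the difference was -1.77 (95% interval -3.63 to 0.08), for Rp1 0.67, for Tulp1 -0.31, for Fscn2 0.09 and for Impg1 -0.50. The earlier step of Rp1 is a bound, so its difference is at most 2.73. Under other settings 2 of these 5 passed, Rp1 with normexp background correction (2.29, adjusted p = 0.00973) and Impg1 with an intensity trend in the prior (-0.50, adjusted p = 0.0434).

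**Figure D3:**
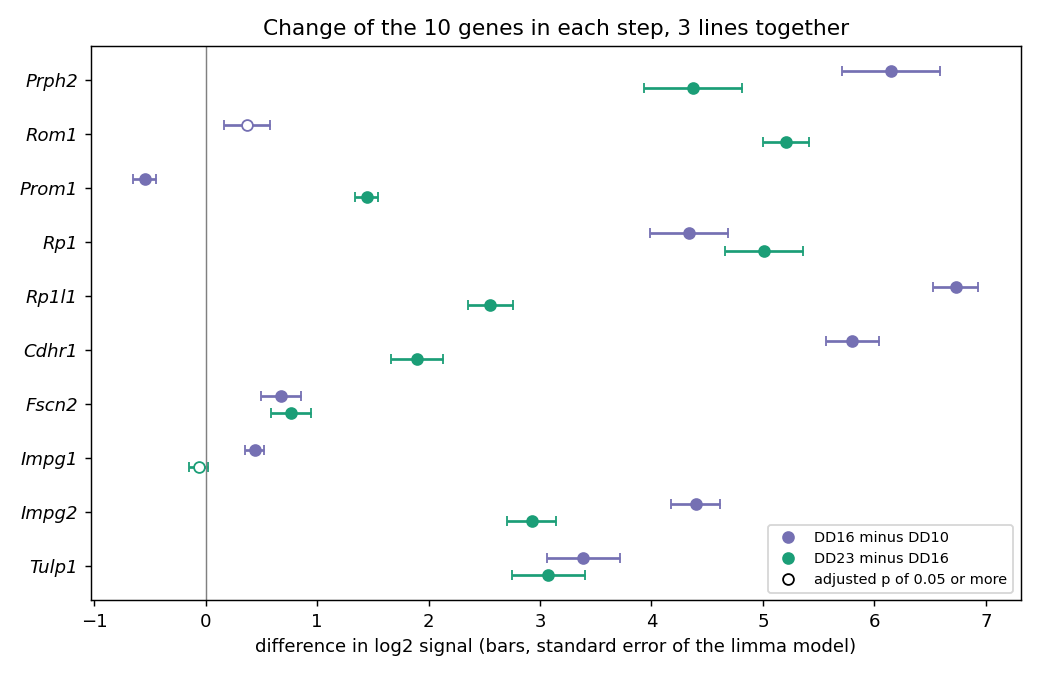
Fitted change of each gene on the log2 scale from DD10 to DD16 and from DD16 to DD23, over the 3 lines, with bars of 1 standard error of the limma model and open symbols where the adjusted p is 0.05 or more. Rom1 goes from 0.37 to 5.21 and Cdhr1 from 5.80 to 1.90, whereas the steps of Fscn2, 0.68 and 0.77, are alike in size.

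The amount of RNA or its labelling may differ between days, which bears on the small changes. The probes of 8 spike-in E1A control RNAs were 0.51 higher at DD16 than at DD10 in the median (0.10 to 0.59) on the scale used here, and relative to them the median change of all genes was -0.47. With arrays scaled to the spike-ins, 1649 genes were called higher and 14134 lower in the earlier step, against 5167 and 4439 otherwise. In the later step the counts were 5436 and 3996, against 4553 and 5170. The large rises of Prph2, Cdhr1, Rp1l1, Rp1, Impg2 and Tulp1 kept their calls in both steps under this scaling, as did Rom1 in the later step. The part of the RNA amount in the changes under 1 log2 unit was not tested.

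Other genes of the outer segment rose along with these 10, but not all of them and not at the same time. Of 18 tested genes of discs and the outer segment outside the 10, 10 rose and 0 fell from DD10 to DD16, and 14 rose and 0 fell from DD16 to DD23. In the earlier step Aipl1, a chaperone of the rod phosphodiesterase, was dim at DD10 and became at least 6.83-fold higher, Prcd, a small disc protein, was 7.83-fold higher and Cngb3, a subunit of the cone channel, 6.58-fold higher. In the later step Opn1sw, the gene of the short-wavelength cone pigment, rose 71.1-fold and Aipl1 10.1-fold. The median of these 18 genes was 0.39 and then 1.61 on the log2 scale, beside the 3.86 and 2.74 of the 10 structural genes. With genes dim on the earlier day of a step set at their bound, the medians were 0.39 and 1.43 for the 18 genes. For the 10 structural genes they were then 2.84 and 2.74.

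Genes of the connecting cilium, the bridge through which outer segment proteins pass, mostly moved late. Of 28 tested, 5 rose and 6 fell in the earlier step, close to the share over all genes, and 18 rose and 2 fell in the later step. Mak, a kinase of the photoreceptor axoneme, measured higher in both steps, 5.57-fold in the later one. DD10 was dim in 2 of the 3 lines, so no exact fold is given for the earlier step. Pcare, which takes part in forming new discs, also measured higher in both steps, 6.98-fold in the later one. It too had 2 dim arrays at DD10, and no exact fold is given for its earlier step. Fam161a, a microtubule-binding protein of the cilium, was 3.91-fold higher in the later step. The difference between steps was called higher for 13 of the 28 and lower for none, led by Rpgrip1 (1.67), Pcare (1.60) and Ttc8 (1.45).

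Among 9 tested genes of the interphotoreceptor matrix and of photoreceptor adhesion, 4 rose and 1 fell in the earlier step and 4 rose and 2 fell in the later one. Egflam (pikachurin, a matrix protein at the photoreceptor synapse) was 6.57-fold and then 4.43-fold higher. Crb1, a protein of the outer limiting membrane, was 6.54-fold higher, from a DD10 level above background on 2 of 3 arrays, and Efemp1, a matrix protein, 3.51-fold higher in the earlier step. In the later step the fit called Pcdh15, a protocadherin of photoreceptors and hair cells, higher. It was above background on all 3 arrays of DD23 but on only 1 of 3 at DD16, so no exact fold is given. Rbp3, the retinoid carrier of the matrix, was 4.20-fold higher in that step.

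The paralogs of the 10 genes behaved differently. Of 12 tested relatives, among them fascins, tubby-like proteins, doublecortin relatives and other cadherins of the same family, 1 rose and 0 fell in the earlier step and 5 rose and 2 fell in the later one, with medians of 0.06 and 0.05.

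Transcription factors that act on photoreceptor genes rose in both steps. Of 14 tested, 11 rose and 0 fell in the earlier step, and 9 rose and 0 fell in the later. The difference between steps was called lower for 6 of the 14 and higher for none, and the other 8 did not pass. Nrl, which directs rod fate, was dim at DD10 and at least 67.6-fold higher at DD16, then 21.8-fold higher at DD23. Nr2e3, which acts with Nrl in rods, was dim at DD10 and rose by at least 2.59 on the log2 scale and then 60.7-fold, and Samd7, a silencing factor of rods, rose at least 24.6-fold and then 4.52-fold.

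The genes whose values over the 9 arrays ran closest to each member were looked up among 13923 genes that varied by at least 1 log2 unit. As the arrays fall into 3 days, Pearson's r here only orders the genes by likeness and is no test. For Rp1 the closest was Nr2e3 (0.999), for Rp1l1 the transducin subunit Gngt1 (0.999), for Cdhr1 the factor Crx (0.999) followed by the cone subunit Gngt2 (0.999), and for Impg2 the cone subunit Gnb3 (0.999) followed by Aipl1 (0.999). For Rom1 they were Tln2, the talin-2 gene (0.998), and Arl6, a small GTPase of cilia (0.995), and for Prom1 Mylk, a myosin kinase gene (0.995). Prph2 was closest to Dnaic1, a dynein gene (0.997), after an uncharacterized transcript, Fscn2 to Fam161b (0.991) and Tulp1 to Epb4.1l4b (0.997). For the bright Impg1 probe no gene with a known photoreceptor role was among the closest 3. Between members, r was 0.995 for Rp1l1 and Cdhr1 and 0.997 for Prph2 and Tulp1, 0.839 for the rim partners Prph2 and Rom1, and -0.06 for Prom1 and Impg1.

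The comparison of B4KO with WT asks whether losing Bhlhb4 moved the structural genes at matched days. In this fit 22% of all genes were called, 3.99% higher and 18% lower in B4KO. Of the 10 genes, 1 was lower and none higher. The bright Impg1 probe differed from WT by -0.55 at DD10, -0.57 at DD16 and -0.38 at DD23, a fitted difference of -0.50 (SE 0.09, limma adjusted p = 0.0104). The call was lost without WT at DD10 (-0.45) and when the Impg1 probes were averaged (-0.40). The other Impg1 probe with a test was at -0.30 (adjusted p = 0.666). For the other genes the difference lay between -0.49 for Fscn2 (95% interval -0.93 to -0.05, adjusted p = 0.105) and 0.34 for Cdhr1 (-0.23 to 0.92, adjusted p = 0.340). Without B4KO at DD16 the Fscn2 difference was -0.72 and passed the threshold. The interval was -1.38 to 0.77 for Prph2, -0.34 to 0.67 for Rom1, -0.13 to 0.39 for Prom1, -0.81 to 0.90 for Rp1, -0.59 to 0.39 for Rp1l1, -0.46 to 0.62 for Impg2 and -0.99 to 0.62 for Tulp1. The intervals of Prph2, Rp1 and Tulp1 were the widest. Prph2 and Tulp1 were dim at DD10 in 1 or more lines, and Rp1 and Rp1l1 in every line. The fitted differences of Prph2, Rp1 and Rp1l1 include DD10, where B4KO and WT were both dim. The part of the dim signal in the intervals was not tested.

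B4KO lay alone on its slide, so the line and the slide cannot be told apart. In the fit of all probes, where 16.5% were called, the second Impg2 probe (-0.88, adjusted p = 0.00343, with B4KO dim at DD10 and DD16, and -0.67 at DD23, where both lines were above background) and the Tulp1 probe at chr17:28492762-28492821 (-1.12, adjusted p = 0.0231) were lower in B4KO, while the brightest probes of these genes gave 0.08 and -0.19. The spike-in RNAs were 0.12 higher in B4KO in the median, with a range of -0.75 to 0.22. Of the other outer segment genes, Cnga1 (-0.73) and Cngb1 (-0.68), the subunits of the rod channel, were lower and Arl3, a GTPase of protein transport to the cilium, was higher (0.54). In all, 3 of 18 were lower and 1 higher, close to the shares over all genes, 18% lower and 3.99% higher.

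In Isl1KO, which shared a slide with WT, none of the 10 genes passed the test, against 0.00424% of all genes, which is 1 gene of 23594. At an unadjusted p under 0.05, 1924 of all genes and none of the 10 passed. The differences from WT ran from -0.26 for Rp1l1 (95% interval -0.75 to 0.23) to 0.42 for Rom1 (-0.08 to 0.92, limma adjusted p = 0.659). The value of Rp1l1 includes -0.72 at DD10, where both lines were dim. On the days with signal above background Rp1l1 differed by -0.31 (DD16) and 0.24 (DD23). The widest interval was that of Prph2, -0.86 to 1.28. For 8 of the 10 the sign changed when 1 of the arrays was left out.

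By day, 1 array against 1 and without a test, most genes changed their order between a knockout and WT. On all 3 days Impg1 was lower in B4KO (values above), Prom1 was higher in B4KO by 0.21, 0.13 and 0.06 and Cdhr1 was higher in B4KO by 0.96, 0.02 and 0.04. In Isl1KO the 1 gene with the same sign on all days was Rom1, higher by 0.73, 0.18 and 0.35. At DD23 the brightest probes of all 10 genes measured higher in Isl1KO than in WT, from 0.00 for Fscn2 to 0.45 for Prph2, with a median of 0.32, while 51.4% of all tested genes were higher with a median of 0.01. Of the 8 other probes of these genes above background in both lines at DD23, 4 were lower in Isl1KO and 4 higher. They ran from -0.23 for the Tulp1 probe at chr17:28489503-28489562 to 1.21 for the Impg1 probe at base 967. The summed photoreceptor markers at DD23 were 334 in WT, 344 in B4KO and 428 in Isl1KO, and their part in this was not tested. At DD16 Isl1KO was lower than WT for 7 of the 10, while 50.5% of all tested genes were higher. At DD10, 3 genes (Prph2, Rp1 and Rp1l1) were dim in both B4KO and WT and have no order. Of the other 7 B4KO was lower for 4, with Tulp1 dim in B4KO, while 47.83% of all tested genes were higher. B4KO was higher than WT for 9 of 10 at DD16 and lower for 6 of 10 at DD23. Over all tested genes 50.11% were higher in B4KO at DD16 and 50.17% at DD23. Whether a knockout's difference at DD23 departed from its difference at the earlier days was tested in a second fit with 2 residual degrees of freedom. No gene of 23594 passed in either line, that is 0% (1429 in B4KO and 1161 in Isl1KO at an unadjusted p under 0.05). Among the 10 genes the extra difference at DD23 ran from -0.83 for Rom1 to 0.32 for Tulp1 in B4KO and from -0.10 for Rom1 to 0.89 for Rp1 in Isl1KO. Both upper ends rest in part on dim signal at DD10, of Tulp1 in B4KO and of Rp1 in Isl1KO and WT.

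**Figure D4:**
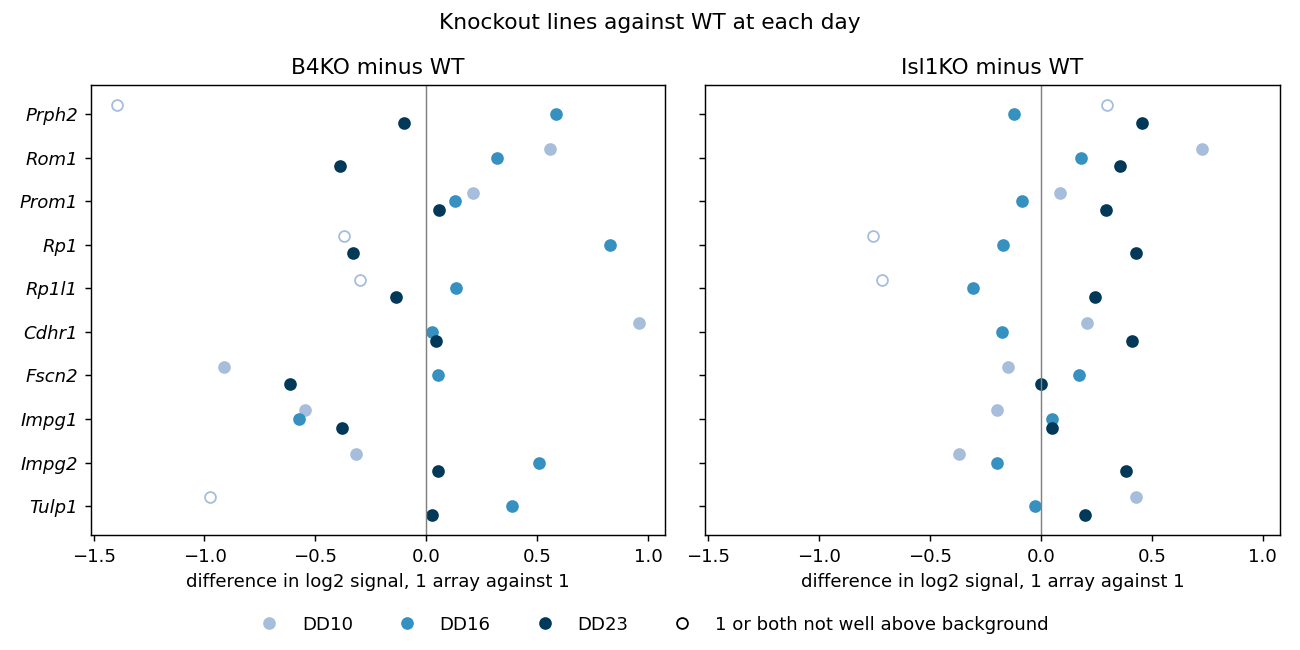
Difference in log2 signal of each knockout from WT at DD10, DD16 and DD23 for the 10 genes, 1 array against 1, with open symbols where 1 or both probes were not well above background. In B4KO the Impg1 points lie between -0.57 and -0.38 on all days, and in Isl1KO the DD23 points run from 0.00 to 0.45.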

How the data were processed

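Each of the 9 samples was hybridised to 1 single-colour (Cy3) Agilent array. Per the labels, signals were read with Agilent Feature Extraction 12.0.3.1, as the submitters' processing notes give it. The deposited scanner files hold, per the file headers, processed intensity after the software's background subtraction and a flag per spot for signal well above background. The deposited value table holds a ratio per probe, which the authors computed by a step not given in the sources used here. On probes of the 10 genes it equalled the processed signal times a constant per array (largest log2 gap 0.000 over 47 values above 1) and was used only as an alternative. Its column medians were 0.0874 to 0.120, and why the arrays' constants differ is not known.

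Processed signals were divided by the array's 75th percentile and taken as log2, and spots of a probe were averaged. A gene was represented by its brightest probe among those well above background on at least 3 of 9 arrays, which left 23594 genes. Spots flagged as outliers were left out, which removed 102 probes. 32994 probes matched RefSeq by accession, and the design coordinates are mm9. Exon or UTR positions of the probes were not analysed here. The model line plus day (4 residual degrees of freedom) and a second model with a DD23 term in each knockout were fitted with limma 3.58.1 in R 4.3.3, with Benjamini-Hochberg adjustment at 0.05, and the fitting was tested on simulated data. A fold against a group dim on all arrays is a bound: the bright group's mean against the higher of the lowest signal well above background and the probe's own value on each dim array. Samples are single pools, so p-values measure the spread left after the terms of the model. That is how unevenly the day changes ran across lines, or the line differences across days. It is not the spread between samples or clones of a line, and precision is limited by there being 9 arrays.

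All 10 genes are named in every comparison. Of each other list at most the 3 genes with the largest change past the threshold are named (some are not reported here), and for each member the 3 most alike genes were considered. The members and lists were chosen with earlier results of these data known. Other settings tried were normexp background correction (offset 50), quantile normalization, other filters on dim probes, averaging of probes, the value table, an intensity trend in limma's prior, the slide of WT and Isl1KO alone, each array left out and, chosen after seeing the data, scaling to the spike-ins.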

Additional observations from a re-analysis of the deposited data

Results flagged for a closer look

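The bright Impg1 probe went opposite ways in the lines between DD16 and DD23. It changed by -0.13 in WT, 0.07 in B4KO and -0.13 in Isl1KO, 1 array against 1. These differences are about the size of the standard error of the fit (0.09). The difference between the lines in this step was not tested, since each line has 1 array at each day.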

How the results depend on the processing

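Days were already compared within lines, since line is a term of the model. No paired analysis was possible because, beyond that, the labels give no replicate numbers and every line and day has 1 sample. Counts of genes that moved by over 1.5 times were as follows. From DD10 to DD16, 9606 genes became 4899 on the slide of WT and Isl1KO alone and 15783 with spike-in scaling. For later minus earlier step, 4740 became 1633 with no filter on dim probes, 797 on that slide and 11006 with spike-ins, of which 10190 higher and 816 lower against 2037 and 2703. For Isl1KO against WT, 1 became 11 with normexp, 4548 with no filter (4386 of them lower), 14 with an intensity trend and 3 on the slide. For B4KO against WT the members called went from 1 to 0 with probes averaged, and the genes called higher went from 942 to 1815 with normexp, 622 with the dim-probe filter at 1 array, 207 with no filter, 1966 with the intensity trend and 178 with spike-ins, while the genes called lower, 4251, moved by less than 1.5 times. Spike-ins moved the median gene to -0.47 for the earlier step, 0.56 for later minus earlier and -0.12 for B4KO, and no filter moved it to 0.15, -0.16 and -0.11.

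With 1 array left out, counts ran from 5899 to 9079 genes and 7 to 9 members (DD10 to DD16), 6510 to 9337 and 8 to 9 (DD16 to DD23), 520 to 3564 and 4 to 5 (later minus earlier), 3417 to 4621 and 0 to 2 (B4KO), and 0 to 2 and 0 to 0 (Isl1KO). Counts of genes moved by over 1.5 times without Isl1KO at DD10 (5899) or DD16 (5917) for DD10 to DD16, and without WT at DD10 or DD23 (3417 each) for B4KO. For later minus earlier they did so without WT at DD10 (2989), DD16 (636) or DD23 (2877), B4KO at DD16 (2322) or Isl1KO at DD10 (2515), DD16 (520) or DD23 (2658). The extra DD23 terms stayed at 0 in the fits that could be made, which were not those without WT or the line's own array at DD23.

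Signs reversed for these values, and the cause was not tested. With spike-ins: Rom1 -0.14 and Impg1 -0.069 (DD10 to DD16), Impg1 0.015 (DD16 to DD23), Impg1 0.083 and Tulp1 0.27 (later minus earlier), Impg2 -0.036 and Rp1 -0.075 (B4KO), Fscn2 -0.059 (Isl1KO). With probes averaged: Impg1 1.46 (DD16 to DD23, where its probe at base 967 alone gave 2.99) and 1.14 (later minus earlier), Impg2 -0.40 (B4KO), Tulp1 -0.084 (Isl1KO). With normexp: Prph2 0.17 and Tulp1 0.54 (later minus earlier), Prph2 0.051 (B4KO), Rp1 0.0048 (Isl1KO). Tulp1 was 0.37 on the slide (later minus earlier), and Rp1 was 0.065 with quantile normalization (Isl1KO). Leaving out 1 array also reversed signs. Over those fits B4KO minus WT ran from -0.17 to 0.26 for Impg2, -0.83 to 0.26 for Prph2, -0.014 to 0.42 for Rom1, -0.35 to 0.38 for Rp1, -0.23 to 0.064 for Rp1l1 and -0.53 to 0.26 for Tulp1. Isl1KO minus WT ran from -0.060 to 0.31 for Cdhr1, -0.17 to 0.15 for Fscn2, -0.092 to 0.040 for Impg1, -0.29 to 0.12 for Impg2, -0.018 to 0.19 for Prom1, -0.11 to 0.60 for Prph2, -0.56 to 0.085 for Rp1 and -0.11 to 0.46 for Tulp1. Later minus earlier ran from -0.26 to 0.55 for Fscn2 and -0.83 to 0.37 for Tulp1. None of these reversed values passed the threshold except Impg1 from DD16 to DD23 with probes averaged or with the probe at base 967. Both include the probe that passed the filter only through DD23, so they are no independent support for a rise.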
